A study of Mus musculus with 6 samples.

Results

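The values described here belong to 10 genes of the bone morphogenetic protein (BMP) pathway, measured in mouse embryonic stem cells with and without knockdown of Trim71, which encodes a TRIM-NHL protein that represses messenger RNAs and is abundant in early development. They are the ligand gene Bmp4, the receptor genes Bmpr1a and Bambi, the transducer gene Smad1, the inhibitory genes Smad6 and Smad7, and the response genes Id1, Id2, Id3 and Id4. A member was taken from every probe set whose only annotated symbol was one of these names, and each of the 10 had exactly 1 probe set, among 19937 genes in all. The series holds 6 single-colour Affymetrix arrays. The 3 knockdown arrays are embryonic stem cells with the genotype Trim71 KD, treated with a mixture of 3 siRNAs to Trim71 and a lipid reagent and collected 72 h later. The 3 control arrays are cells labelled wild-type, which the series title names parental. The protocol mentions a non-targeting siRNA, but no label of a control array says that its cells received it. Neither the cell line, its strain nor its culture medium is given in the sources used here, so it is not known whether BMP or serum was added.

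BMPs bind paired type I and type II receptor kinases, which phosphorylate SMAD1, SMAD5 and SMAD9. These enter the nucleus with SMAD4 and switch on target genes, among which the Id genes are the best known. ID proteins are helix-loop-helix proteins without a DNA-binding region that hold E proteins and lineage regulators in inactive pairs, and in mouse embryonic stem cells they are known for restraining neural differentiation. SMAD6, SMAD7 and BAMBI limit the signal, and their genes are themselves induced by it in many cells.

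Trim71 itself fell from a mean log2 level of 10.50 ± 0.018 to 8.98 ± 0.025 (SD, n = 3 each; log2 change −1.52 ± 0.045 SE, adjusted p = 2.8e-05). All 12 listed embryonic stem cell markers were measured, with mean control levels from 9.60 to 12.96 against array medians of 6.26 to 6.31. The summed linear signal of the 12 was 38260 to 39300 on control and 40760 to 42360 on knockdown arrays. Of the 12, 11 had positive changes and 1 a negative one, and 3 (25%) were called higher in the knockdown cells. Over all genes 5.53% were called either way, and 19.0% in a fit of only the genes at or above the median level. Knockdown array 3 stood apart, with an upper quartile of 8.42 against 8.32 to 8.35 on the other 5 arrays. It had the highest of the 3 knockdown values for 48.7% of all genes and for 7 of the 10 members. The summed linear signal of 11 measured fibroblast markers was 1465 to 1659 on control and 1232 to 1265 on knockdown arrays. Of these 11, 2 were called lower, the smooth muscle genes Acta2 and Tagln, and the other 9 summed to 558 to 599 and 543 to 613. The sum of 10 primitive endoderm markers was 1121 to 1148 and 1030 to 1047. Of these 10, only Lama1 was called, lower by a log2 change of −0.29. It was the brightest of them, with a mean control level of 8.3 against 7.2 for Gata6, the next. In all, 8 of the 10 had negative changes and 2 positive, and the sum without Lama1 was not taken. The sum of 9 trophectoderm markers was 4413 to 4922 and 5015 to 5625, or 1127 to 1155 and 1256 to 1417 without the keratins Krt8 and Krt18. Of the 9, Tfap2c was called higher by a log2 change of 0.53, and Eomes, Hand1 and Elf5 had log2 changes of −0.30, −0.16 and −0.12 that did not pass. Tfap2c was the brightest gene left in the sum without Krt8 and Krt18, and a sum also without Tfap2c was not taken. The sum of 8 neural markers was 883 to 910 and 766 to 801, but 561 to 581 and 579 to 614 without Pax6, which was called lower, while Nes was called higher. The genes left out of these sums were chosen after their values were seen. The 5 measured mesoderm markers overlapped, at 268 to 275 and 271 to 291. No marker could be called absent, since the values carry no detection call, and the part of these markers in the results was not tested. In such bulk samples, fewer cells of a type and less RNA per cell cannot be told apart.

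Among the BMP members, Smad6 and Id3 rose and Bambi fell after Trim71 knockdown, while the other 7 did not pass the test. Smad6, an inhibitor of BMP receptor signalling, rose 1.36-fold, and Id3 rose 1.27-fold. Bambi, which encodes a receptor-like protein without a kinase, fell 1.27-fold. The rest, Bmp4, Bmpr1a, Smad1, Smad7, Id1, Id2 and Id4, lay between log2 changes of −0.17 and 0.06. The 3 calls are 30% of the 10 members. Over all 19937 genes 5.53% were called, 3.39% higher and 2.15% lower, at an adjusted p under 0.05 in limma. All 10 members were at or above the median level of the genes, and in a fit of those 9969 brighter genes 19.0% were called, with the same 3 members. Control and knockdown values did not overlap for 7 of the 10 members, against 25.5% of all genes, and 5 of the 10 had an unadjusted p under 0.05, against 19.0%. Both of these shares include the dimmer genes and were not taken over the brighter genes alone. The median log2 change of the members was −0.08 and that of all genes 0.005. Over all genes 675 were called higher and 428 lower, a split that was 779 and 763 after a repeated quantile normalization and 527 and 616 with arrays centred on their medians. The direction of each of the 10 members was the same under both scalings.

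**Figure D1:**
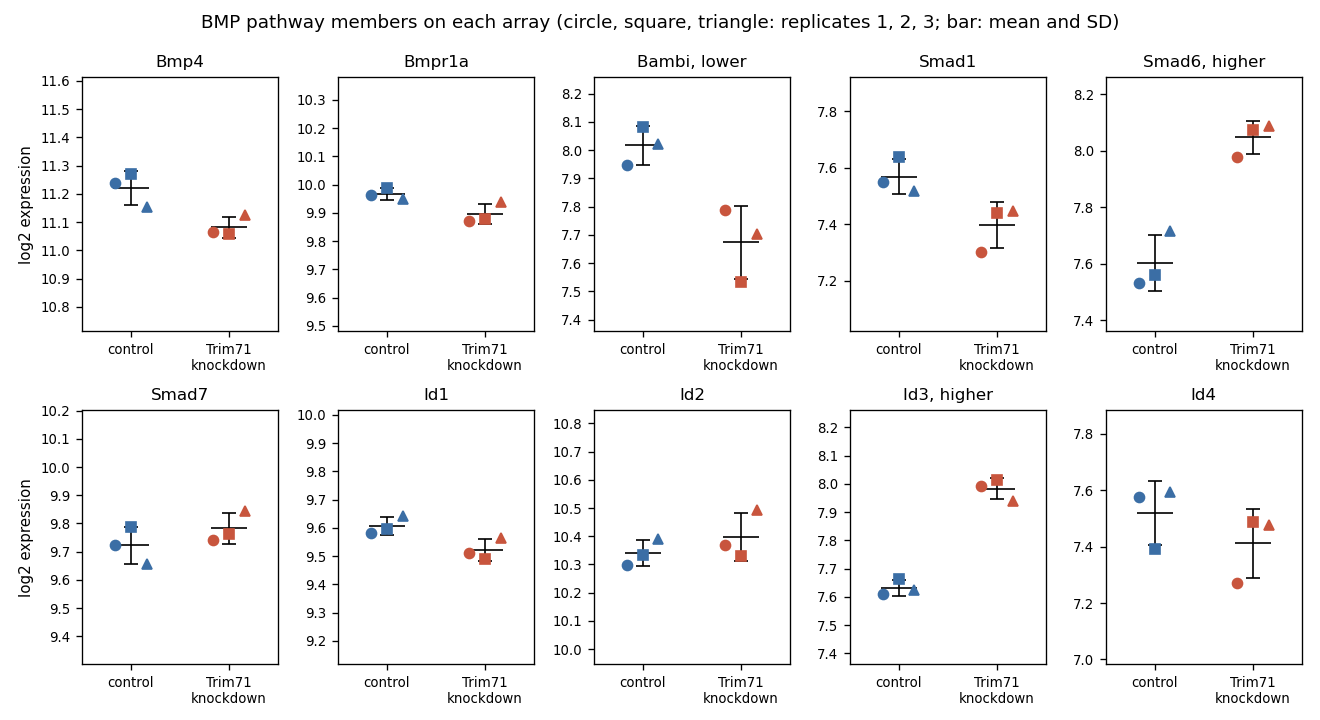
Log2 expression of the 10 members on each array, in panels that each span 0.9 log2 units, with control arrays in blue, Trim71 knockdown arrays in red and the mean and SD of 3 arrays as bars. Smad6 and Id3 lie higher and Bambi lower on all 3 knockdown arrays, and the values of Smad7, Id2 and Id4 overlap between the groups.

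At the level of ligand and receptor the measured differences were small. Bmp4, the member that encodes a secreted ligand, read 11.24, 11.27 and 11.15 on the control arrays and 11.06, 11.06 and 11.13 on the knockdown arrays. Its knockdown values all lay below its control values, with control array 3 the nearest to them. The log2 change was −0.14 ± 0.052 SE (95% interval −0.26 to −0.02) with an adjusted p of 0.203, so Bmp4 did not pass, although it did with a trended and robust prior (adjusted p = 0.0177). Bmpr1a, the type I receptor ALK3, read 9.96, 9.99 and 9.95 in control cells and 9.87, 9.88 and 9.94 in knockdown cells. These groups were separated only narrowly, by control array 3 and knockdown array 3, and the change of −0.07 ± 0.046 SE did not pass (adjusted p = 0.484).

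Bambi resembles a type I receptor outside the cell but lacks the kinase, and it dampens signals of the BMP, activin and TGF-beta receptors. Its probe set, 10453604, read 7.95, 8.08 and 8.02 on the control arrays and 7.79, 7.53 and 7.70 on the knockdown arrays. Every knockdown value was lower than every control value, and knockdown array 2 was the lowest. The mean went from 8.02 ± 0.068 (SD, n = 3) to 7.67 ± 0.13 (SD, n = 3), a log2 change of −0.34 ± 0.075 SE with an adjusted p of 0.0427. This call was near the threshold. It held without knockdown array 1 (adjusted p = 0.0436), but not without control array 1, 2 or 3 (0.104, 0.155 and 0.133) or knockdown array 2 or 3 (0.108 and 0.0627), nor without variance moderation (0.157) or over all probe sets (0.12).

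Smad1, a transducer that the BMP receptors phosphorylate, read 7.55, 7.64 and 7.52 in control cells and 7.30, 7.44 and 7.45 in knockdown cells. The groups did not overlap, but the change of −0.17 ± 0.061 SE (95% interval −0.31 to −0.03) did not pass (adjusted p = 0.173).

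The inhibitory SMADs gave unlike values. Smad6, which blocks BMP receptors and SMAD1, read 7.53, 7.56 and 7.72 on the control arrays and 7.98, 8.07 and 8.09 on the knockdown arrays (probe set 10594418). All 3 knockdown values lay above the highest control value, that of control array 3. Its mean went from 7.60 ± 0.099 (SD, n = 3) to 8.05 ± 0.060 (SD, n = 3). The log2 change of 0.44 ± 0.065 SE, with a 95% interval of 0.29 to 0.59 and an adjusted p of 0.0113, was the largest of the 10 in size and larger in size than that of 98.6% of all genes. The call was lost when control array 1 (adjusted p = 0.0641), control array 2 (0.0604) or knockdown array 2 (0.0551) was left out, and without variance moderation (0.0711).

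Smad7, which acts on both the BMP and the activin and TGF-beta receptors, read 9.72, 9.79 and 9.66 in control cells and 9.74, 9.76 and 9.84 in knockdown cells. The groups overlapped, and the change was 0.06 ± 0.056 SE (95% interval −0.07 to 0.19, adjusted p = 0.649). Within arrays, the change of Smad6 exceeded that of Smad7 by 0.38 ± 0.092 SE, in a comparison chosen after the values were seen. An exact permutation test (two-sided) gave p = 0.1, and groups of 3 and 3 can reach no lower value.

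Of the 4 Id genes, Id3 alone passed the test. Id3 read 7.61, 7.66 and 7.62 on the control arrays and 7.99, 8.01 and 7.94 on the knockdown arrays (probe set 10509163). The arrays of each group lay close together and the groups were well apart. Its mean went from 7.63 ± 0.028 (SD, n = 3) to 7.98 ± 0.037 (SD, n = 3), a log2 change of 0.35 ± 0.047 SE with an adjusted p of 0.00878. The adjusted p was 0.0594 without control array 1 and at most 0.0469 without any other array.

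Id1, a widely used readout of BMP signals, read 9.58, 9.59 and 9.64 in control cells and 9.51, 9.49 and 9.57 in knockdown cells. Its knockdown values were lower, by a narrow margin, and the change of −0.08 ± 0.048 SE (95% interval −0.20 to 0.03) did not pass (adjusted p = 0.412). Id2 read 10.30, 10.33 and 10.39 against 10.37, 10.33 and 10.49, with overlapping groups (change 0.06 ± 0.059 SE, 95% interval −0.08 to 0.19, adjusted p = 0.696). Id4, which has roles in the nervous system and the germ line, read 7.58, 7.39 and 7.59 in control cells and 7.27, 7.49 and 7.48 in knockdown cells. Control array 2 and knockdown array 1 were the low values of their groups, the groups overlapped, and the change was −0.11 ± 0.082 SE (95% interval −0.30 to 0.08, adjusted p = 0.551).

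The difference between Id3 and its relatives was then measured within arrays, in comparisons also chosen after the values were seen. The change of Id3 exceeded that of Id1 by 0.43 ± 0.051 SE, that of Id2 by 0.29 ± 0.076 SE and that of Id4 by 0.46 ± 0.11 SE on the log2 scale. In each of these pairs the 3 knockdown arrays lay above all control arrays. Each exact two-sided permutation p was 0.1, as was each after Benjamini-Hochberg adjustment over the 4 pairs with Smad6 and Smad7, and 3 against 3 arrays cannot reach 0.05.

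**Figure D2:**
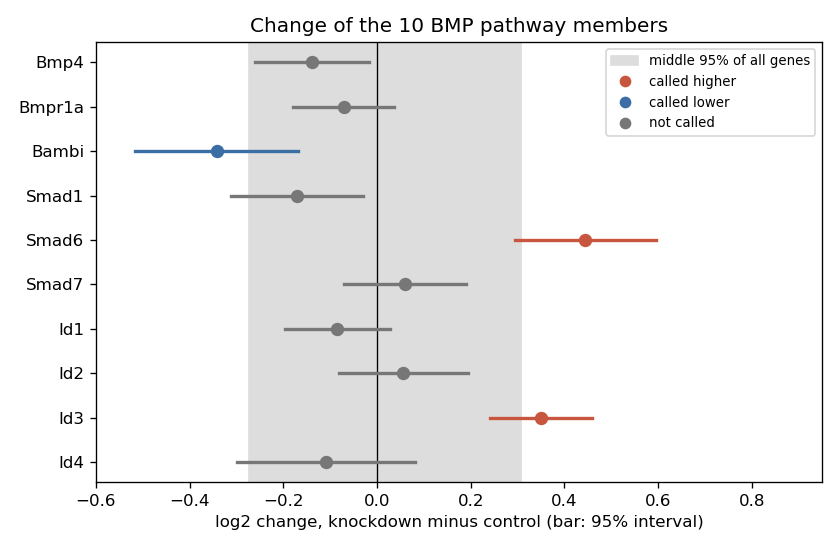
Log2 change of each member, knockdown minus control, with 95% intervals of the limma fit as bars and the middle 95% of all genes, −0.27 to 0.31, in grey. Smad6, Id3 and Bambi have points outside the grey band, while those of the other 7 members are inside it.

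Promoters of both members that rose and of the Id relatives with an entry are shown to set the letters near their starts side by side. They come from RefSeq (GRCm38.p6), which matched 7 of the 10 members, without Id1, Smad7 and Bambi. Each runs from 250 bases before the start to base 10 of the transcript on the strand of the gene, 5′ to 3′. Capitals mark matches on both strands to 4 motifs. The short SMAD box is GTCT, which reads AGAC on the opposite strand. Its palindrome GTCTAGAC holds that box in both orientations. The GC-rich SMAD motifs are the palindrome GGCGCC, which reads the same on both strands, and the hexamer GGAGCC, whose reverse complement is also marked. Id3 lies at chr4:136143572-136143831 (plus strand), Smad6 at chr9:64022050-64022309 (minus strand), Id2 at chr12:25096083-25096342 (minus strand) and Id4 at chr13:48260866-48261125 (plus strand).
Id3: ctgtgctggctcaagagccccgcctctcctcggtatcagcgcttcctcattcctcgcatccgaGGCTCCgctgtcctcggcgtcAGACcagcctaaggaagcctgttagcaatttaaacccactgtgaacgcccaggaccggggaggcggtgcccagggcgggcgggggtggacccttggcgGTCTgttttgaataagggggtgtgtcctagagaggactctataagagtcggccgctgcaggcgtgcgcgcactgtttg
Smad6: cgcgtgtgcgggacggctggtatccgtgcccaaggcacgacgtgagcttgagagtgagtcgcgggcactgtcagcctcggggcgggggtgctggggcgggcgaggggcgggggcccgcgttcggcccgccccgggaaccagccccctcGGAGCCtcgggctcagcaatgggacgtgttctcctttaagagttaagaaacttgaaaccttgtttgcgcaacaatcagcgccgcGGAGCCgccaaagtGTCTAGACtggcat
Id2: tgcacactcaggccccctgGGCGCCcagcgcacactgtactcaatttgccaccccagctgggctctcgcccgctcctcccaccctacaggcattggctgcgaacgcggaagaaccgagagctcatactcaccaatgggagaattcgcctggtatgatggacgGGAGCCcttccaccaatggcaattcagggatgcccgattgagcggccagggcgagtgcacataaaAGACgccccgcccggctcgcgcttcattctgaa
Id4: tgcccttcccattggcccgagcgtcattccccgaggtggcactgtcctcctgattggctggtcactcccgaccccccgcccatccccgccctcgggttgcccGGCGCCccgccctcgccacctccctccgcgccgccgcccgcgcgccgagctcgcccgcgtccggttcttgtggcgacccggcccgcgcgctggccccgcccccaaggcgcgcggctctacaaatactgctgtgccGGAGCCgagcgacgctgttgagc

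In the Smad6 promoter GTCTAGAC spans the annotated start, from base −4 to base 4, and 58 of 32851 RefSeq promoters of the same length (0.177%) hold it. This palindrome, 1 of the 4 motifs sought, was found in 1 of the 7 member promoters. Smad6 also holds GGAGCC at 2 places, beginning at bases −102 and −18. Id3 holds the short box on the opposite strand from base −166 and on the printed strand from base −68, and the reverse of the hexamer from base −187. Id2 holds the short box on the opposite strand from base −23. Either orientation of the short box was found in 4 of the 7 member promoters and in 84.0% of all promoters, so its presence is common. GGCGCC was found in 3 of the 7 member promoters, Id2 (from base −231), Id4 (from base −148) and Bmpr1a, against 9.96% of all promoters, and in neither Id3 nor Smad6. GGAGCC or its reverse was found in 5 of the 7 member promoters, the 4 shown and Bmp4 but not Bmpr1a or Smad1, against 26.8% of promoters. The 7 member promoters were 61.5% to 78.8% G and C, and shares among promoters of like content were not taken. The counts of these GC-rich motifs can therefore be read neither as enrichment nor as its absence. The matches describe letters only, and no binding was measured here.

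The wider pathway was read from 6 lists of 92 entries, of which 89 were measured. Of the 89, 5 were called higher and 2 lower, 7.87% against the 5.53% of all genes, and their median log2 change was 0.02. Of 15 measured ligand genes 0 were called, 0 had an unadjusted p under 0.05 in limma, and 0 were called with a trended and robust prior. Their changes ran from −0.11 for Gdf3, a ligand of the embryonic stem cell and epiblast (adjusted p = 0.324), to 0.14 for Gdf9, an oocyte ligand (adjusted p = 0.361).

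Among 11 measured receptor and coreceptor genes, 2 rose and 0 fell. Eng, the coreceptor endoglin, read 8.51, 8.54 and 8.52 on control and 8.79, 8.78 and 8.93 on knockdown arrays, a log2 change of 0.31 ± 0.056 SE (adjusted p = 0.0219). Bmpr2, the type II receptor, read 9.57, 9.59 and 9.58 and then 9.74, 9.87 and 9.89, a change of 0.25 ± 0.056 SE (adjusted p = 0.0428). Both were higher on all 3 knockdown arrays. Eng lost its call without any 1 of the control arrays or knockdown array 2 (adjusted p from 0.0625 to 0.104), and Bmpr2 without any array other than knockdown array 1 (0.0639 to 0.164). The median of the receptor list was 0.05.

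Of 16 SMAD transducers and their regulators, 1 rose and 0 fell, with a median of 0.003. This was Tob1, an antiproliferative protein that represses SMAD activity in bone cells, at 0.27 ± 0.061 SE (adjusted p = 0.0452). Its control arrays read 9.45, 9.46 and 9.43 and its knockdown arrays 9.62, 9.72 and 9.82, and the call was lost without any array other than knockdown array 1 (0.0561 to 0.16). Smad3, a transducer of activin and TGF-beta, had a change of 0.27 ± 0.062 SE and an adjusted p of 0.0515. Smad4, the shared partner of the receptor-activated SMADs, had a change of 0.001. Of the other BMP transducers, Smad5 had a change of 0.09 (adjusted p = 0.521) and Smad9 one of −0.17 (adjusted p = 0.291). These 3 genes were chosen after their values were seen.

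Secreted antagonists and modulators were called lower for 1 and higher for 0 of 19 measured, with a median of 0.01. The lower gene was Tll1 at −0.38 ± 0.061 SE (adjusted p = 0.0165), and it encodes a protease that cleaves the antagonist chordin rather than an antagonist. It read 5.93, 5.89 and 5.90 in control and 5.41, 5.59 and 5.58 in knockdown cells, and lost its call without any 1 of the control arrays (0.0657 to 0.0859). All of these values lie below the array medians of 6.26 to 6.31. Fstl3, a follistatin-like protein that binds activins, had a change of 0.41 ± 0.11 SE and did not pass (adjusted p = 0.0822).

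Genes that respond to BMP in other cells or in embryonic stem cells were higher for 2 of 14 and lower for 0, with a median of 0.08. Gata2, a transcription factor of blood and trophoblast, read 6.27, 6.24 and 6.27 on control and 6.64, 6.58 and 6.69 on knockdown arrays. Its control values were close to the array medians. Its change of 0.38 ± 0.050 SE (adjusted p = 0.00793) stayed past the threshold without any 1 array. Hey1, a repressor that also responds to Notch, had a change of 0.29 ± 0.065 SE (adjusted p = 0.0464) and was not called in any of the 6 fits without an array (0.0793 to 0.142) or with arrays centred on their medians (0.0597). Dusp9, a phosphatase induced by BMP4 in embryonic stem cells and named after its value was seen, had a change of −0.14 ± 0.043 SE and did not pass (adjusted p = 0.124). Its mean went from 10.31 ± 0.0076 to 10.17 ± 0.0125 (SD, n = 3 each), without overlap of the groups. These SDs are well below the moderated SE, so its failure to pass leans on variance moderation. Without variance moderation 1 pathway gene was called lower, which was neither Tll1 (adjusted p = 0.0784) nor Neurod1 (0.0593). Dusp9 was not listed singly in that setting.

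The partners of ID proteins, E proteins and the lineage factors that pair with them, were called lower for 1 of 14 measured and higher for 0, with a median of 0.05. Neurod1, a neuronal helix-loop-helix factor, read 7.38, 7.35 and 7.51 in control cells and 6.99, 6.90 and 6.84 in knockdown cells. Its groups were far apart, and the change of −0.50 ± 0.064 SE (adjusted p = 0.00748) stayed past the threshold without any 1 array, though not without variance moderation (0.0593). Tcf3, which encodes the E proteins E12 and E47, the direct partners of ID proteins, had a change of 0.12 ± 0.046 SE and did not pass (adjusted p = 0.196). Eng, Bmpr2, Tob1, Tll1 and Hey1 were also not called without variance moderation (adjusted p from 0.0752 to 0.142) or over all probe sets (0.0614 to 0.124).

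**Figure D3:**
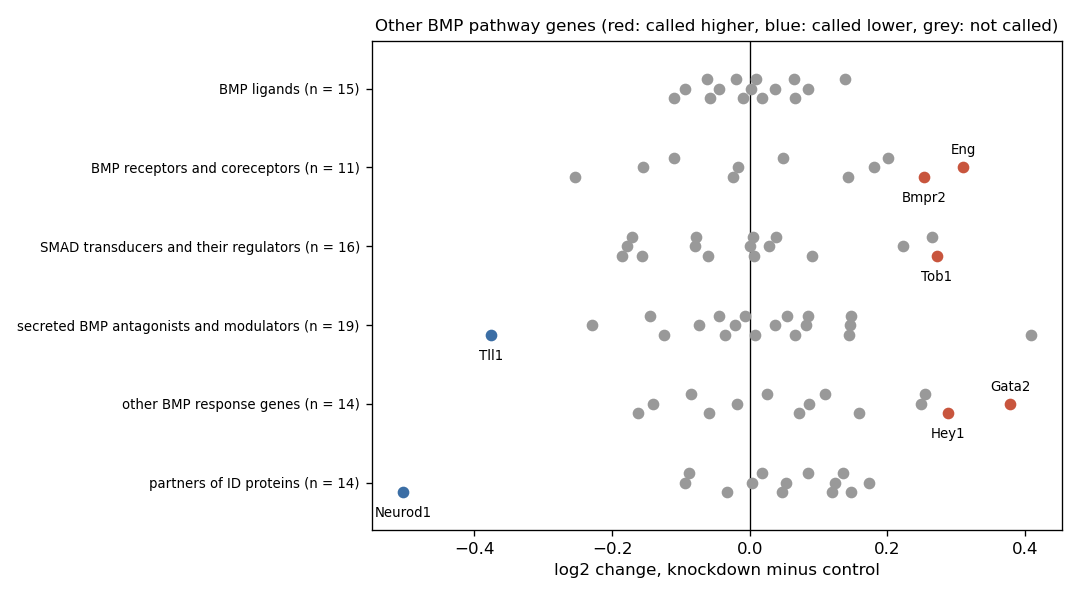
Log2 change, knockdown minus control, of the 89 measured genes of 6 pathway lists, 1 point per gene, with points offset vertically within a list for legibility. The 5 genes called higher (Eng, Bmpr2, Tob1, Gata2, Hey1) and the 2 called lower (Tll1, Neurod1) are labelled, and the 15 ligand genes lie between −0.11 and 0.14.

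The genes most like each called member were ranked by Pearson correlation over the 6 arrays, as a description in which the split between the groups weighs heavily. Nearest to Id3 were Prps2 (r = 0.996), Elk1 (0.995) and Dab2ip (0.994), and 1.79% of all genes had an r over 0.95 with it. Nearest to Smad6 were Fgfr1, Errfi1 (both 0.997) and F830045P16Rik (0.996), with 2.11% of genes over 0.95. For Bambi they were Eif1a (0.997), Mid1ip1 (0.996) and Arf3 (0.994), with 0.632% over 0.95.

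**Figure D4:**
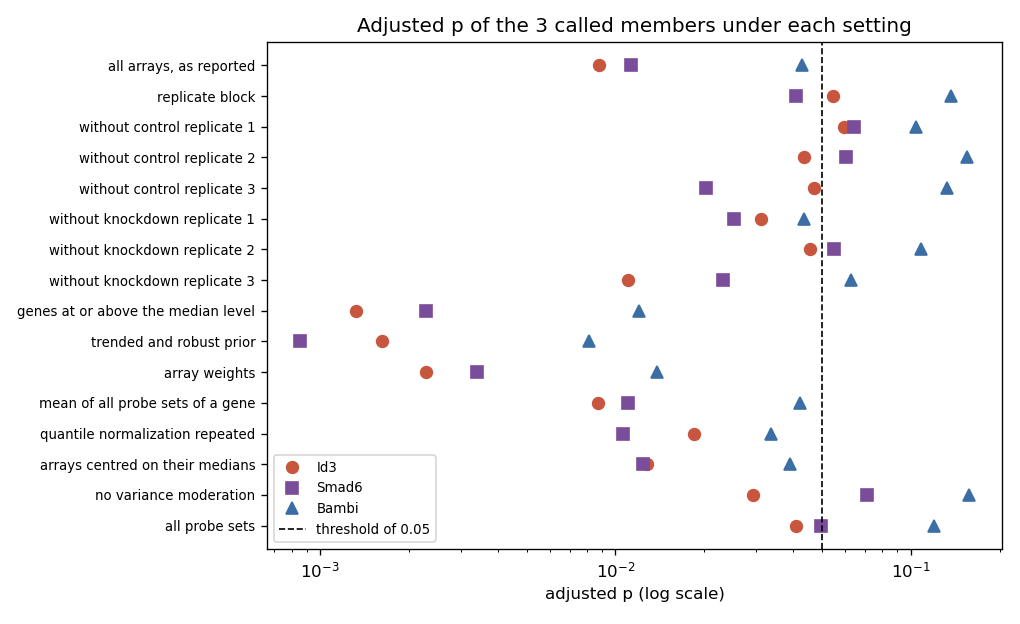
Adjusted p of Id3, Smad6 and Bambi on a log axis as reported and under 15 other settings, with the threshold of 0.05 dashed. Id3 was under the threshold in 13 of the 15, Smad6 in 11 and Bambi in 7.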

How the data were processed

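Each of the 6 samples gave 100 ng of RNA for amplification, per the labels' protocols. The deposited table holds log2 expression of 34760 probe sets, made by the authors with RMA and the affy package, per the submitters' processing notes. No versions are stated in the sources used here. Since RMA brings arrays to a like distribution, a shift common to most genes would be largely invisible. The deposited arrays were not fully alike, with medians of 6.26 to 6.31 and upper quartiles of 8.32 to 8.42. Levels of different members were not compared, while marker levels were set against array medians and summed within lists as a rough check of cell identity. Of the probe sets, 21640 had 1 symbol in GEO's platform annotation, 1321 several and 11799 none. Of those with 1 symbol, 21553 matched RefSeq, and 0 symbols changed. The probe set with the highest mean was kept per gene, which left 19937 genes, with no intensity filter. Group was the only term in limma 3.58.1 (R 4.3.3, lmFit and eBayes), with Benjamini-Hochberg adjustment over all genes and calls at an adjusted p under 0.05. SEs are of this fit, except in comparisons within arrays, where they come from the spread over arrays. The labels do not say whether replicates were separate cultures, so the spread behind the p-values may be technical, and the number of arrays limits the precision. No batch is labelled.

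The members and lists were chosen with earlier results of these data known. Named are all members, in each pathway list every called gene or, where fewer than 2 were called, the 2 with the largest absolute statistic, Trim71, and the 3 genes most like each called member. Other names were chosen after their values were seen. The alternatives were a replicate block, each array left out, genes at or above the median level, a trended and robust prior, array weights, the mean of probe sets, repeated quantile normalization, median centring, no variance moderation and all probe sets. Tables and plots used Python 3.11.15, pandas 2.3.3 and matplotlib 3.10.9.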

Additional observations from a re-analysis of the deposited data

How the results depend on the processing

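Over 15 alternatives no member changed direction, and of 150 member values 135 kept their side of the threshold, 14 lost a call (of Id3, Smad6 or Bambi) and 1 gained it (Bmp4, with the trended and robust prior). With each array left out in turn, 0 to 2 members were called higher and 0 or 1 lower in limma, 1 to 4 pathway genes higher and 1 or 2 lower, and 148 to 603 of all genes higher and 101 to 699 lower. Same-numbered control and knockdown arrays did not deviate together (correlations of −0.02, −0.15 and −0.24), so the numbers were not taken as pairs. With the replicate number as a block, 1 member was called higher (Smad6, with Id3 at an adjusted p of 0.0545) and 0 lower (Bambi at 0.137), with 1 pathway gene higher and 1 lower and 171 and 108 of all genes. Without variance moderation these counts were 1 and 0 members (Id3 called, Bambi at 0.157), 1 and 1 pathway genes and 271 and 142 of all genes. The lower pathway gene there was neither Tll1 (0.0784) nor Neurod1 (0.0593), the 2 called lower with all arrays as reported. Over all probe sets the counts were 2 and 0 members (Bambi at 0.12), 1 and 1 pathway genes, and 266 and 134 of all probe sets. The trended and robust prior gave 2 members lower, 9 and 6 pathway genes and 1213 and 854 of all genes, and array weights gave 8 and 6 pathway genes and 1114 and 1058 of all genes. Among genes at or above the median level 1124 were higher and 766 lower, with 4 pathway genes lower, and after repeated quantile normalization 763 genes and 4 pathway genes were lower. The causes were not tested. Without detection calls, it is not known how far dim probe sets read background, so their changes may misstate those of the transcript.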
